A study of Mus musculus with 8 samples.

Results

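The type I interferon response of the mouse colonic mucosa was followed here through 37 genes, made up of nucleic acid sensors, the transcription factors that amplify the response, antiviral effectors and other interferon-stimulated genes. Members were chosen by gene function, with earlier results of these data known. Of the 37 genes, 35 had a named row on the array, each of them 1 row, among 16420 genes named in the series. Tests were limited to rows with a detection p, a comparison of the row's signal with the array's negative control beads, below 0.01 on 4 or more of the 8 arrays. This left 27 of the 37 genes, among 6982 rows tested in all. Ifi44 and Herc6 had no named row and entered only the promoter search below.

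Transgenic mice carried Dnmt1LO/LO together with TgVillacIGY, and control mice carried Dnmt1LO/LO alone. Neither name is spelled out in the labels, nor are the promoter and cell type that drive the transgene, while the series title speaks of Dnmt1 inhibition. The mice, all males aged 157 days, had a strain background given as mixed (129Sv/B6/D2). Each genotype had 2 mice, and each mouse gave total RNA from colonic mucosa for 2 Illumina MouseRef-8 v2.0 arrays, so n = 2 mice per genotype throughout.

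Cells recognise foreign or misplaced RNA and DNA through sensors such as the helicases RIG-I and MDA5, whose signal leads to secretion of type I interferons. Interferon acts through a receptor on the same and on neighbouring cells, where transcription factors such as STAT2 and IRF9 bind the interferon-stimulated response element, a short promoter motif, and switch on a common set of antiviral genes. DNA methylation, which Dnmt1 copies to the new strand after replication, keeps endogenous retroviral copies silent, and in cancer cell lines treated with methyltransferase inhibitors double-stranded RNA from such copies can set off the same genes, a response known as viral mimicry. The comparison of genotypes asked whether such a response was visible in the mucosa.

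The promoters of this gene set hold the motif more often than promoters of other genes do. In RefSeq windows of assembly GRCm38.p6, each reaching from 250 bases before to 50 bases after a gene's start, the core of the element, GAAA followed by 2 bases of any kind and GAAA again, was searched on both strands, where it reads TTTC, 2 bases and TTTC on the other, and overlapping matches were counted separately. A window was found for 27 of the 37 genes, and 14 of these held the core (51.9%), against 3.99% of the 27025 genes in the table. Irf7, Ifit2, Oasl1, Oasl2 and Cmpk2, each over 2-fold apart between the mice of both genotypes, held no match in their windows. The 250 bases before the start are shown for 3 members chosen because they held the core and because their levels differed several-fold between mice of one genotype. Matches to the core are in capitals.
Isg15, chr4:156200819-156201068, minus strand: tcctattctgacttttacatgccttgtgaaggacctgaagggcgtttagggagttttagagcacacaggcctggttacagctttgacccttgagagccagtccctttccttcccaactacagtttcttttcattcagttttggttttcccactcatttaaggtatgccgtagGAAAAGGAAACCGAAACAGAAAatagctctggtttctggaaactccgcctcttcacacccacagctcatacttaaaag
Ifit3, chr19:34583279-34583528, plus strand: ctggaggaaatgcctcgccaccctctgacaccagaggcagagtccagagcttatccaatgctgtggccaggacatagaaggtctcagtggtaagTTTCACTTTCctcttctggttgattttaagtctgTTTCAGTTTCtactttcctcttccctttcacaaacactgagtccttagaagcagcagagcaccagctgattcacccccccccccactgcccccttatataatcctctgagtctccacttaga
Rsad2, chr12:26456453-26456702, minus strand: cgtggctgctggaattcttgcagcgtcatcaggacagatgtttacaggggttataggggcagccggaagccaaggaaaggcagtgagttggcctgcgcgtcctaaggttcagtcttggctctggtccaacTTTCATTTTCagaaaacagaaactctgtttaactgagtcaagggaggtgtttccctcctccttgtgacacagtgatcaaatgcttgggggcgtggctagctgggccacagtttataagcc
Isg15 held 3 overlapping matches whose first bases lie 78, 72 and 66 bases before the start. Ifit3 held 2 matches, 156 and 122 bases before the start, and Rsad2 held 1, 120 bases before it. A match is a description of the letters and not a measured binding site.

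The Dnmt1 transcript was lower in both transgenic mice. Its level was 7.44 and 6.75 in transgenic mice 1 and 2 and 9.41 and 9.18 in control mice 1 and 2, where a level is the background-corrected, quantile-normalized signal on the log2 scale, averaged over the 2 arrays of a mouse. The change was -2.20 and missed the threshold with an adjusted p of 0.129 (limma on mouse means, Benjamini-Hochberg over all rows tested, threshold 0.05). With the 8 arrays kept apart and the mouse as a random effect, the limma adjusted p was 0.00547. That fit takes 1 correlation between the arrays of a mouse, 0.696, for all rows and partly counts these arrays as separate observations. It adds no mice and does not replace the test on mouse means. The change of Dnmt1 ranged from -2.55 to -1.86 when a mouse was left out. The arrays of transgenic mouse 1 had the lowest mean raw signal, 698 and 753, against values of 998 and 1019 for transgenic mouse 2 and 866 to 1080 in control mice, while the number of detected rows was similar, at 6646 to 7053 per array. Raw signals are given as deposited, and levels are compared after normalization.

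No interferon gene was called different between the genotypes. Of the 27 genes tested, 0 were called higher and 0 lower in transgenic mice, where 9 rows (0.129%) were called higher and 0 (0.0%) lower among all rows tested. At an unadjusted p under 0.05 the counts were 309 rows higher and 278 lower over the whole array and 0 members, and 0 members again with the mouse as a random effect. The smallest unadjusted p of a member was 0.176, and the adjusted p of Oas2, 0.698, was the lowest. The design allows few firm statements in either direction, because the standard errors of the members reached 1.23 on the log2 scale and a p that misses the threshold does not show that the genotypes were alike.

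The changes of the members lay on both sides of zero. Their median was 0.30 on the log2 scale, from -0.35 for Ifit3 to 1.29 for Oas2, with 19 positive and 8 negative, while the median over the 6412 named genes tested was -0.01. For 1 of the 27 members (3.7%), Irf9, the lower transgenic mouse exceeded the higher control mouse, where 21.7% of all rows did so (0 members with median scaling in place of quantile), and for 0 of 27 the order was the full reverse, where 20.9% of all rows did so. For every member but Irf9 the ranges of the genotypes overlapped. Single mice moved the median across zero. Leaving out transgenic mouse 1 gave 0.83, transgenic mouse 2 -0.16, control mouse 1 0.99 and control mouse 2 -0.38. In RNA from a whole mucosa, fewer cells of a type and less RNA per cell cannot be told apart.

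**Figure D1:**
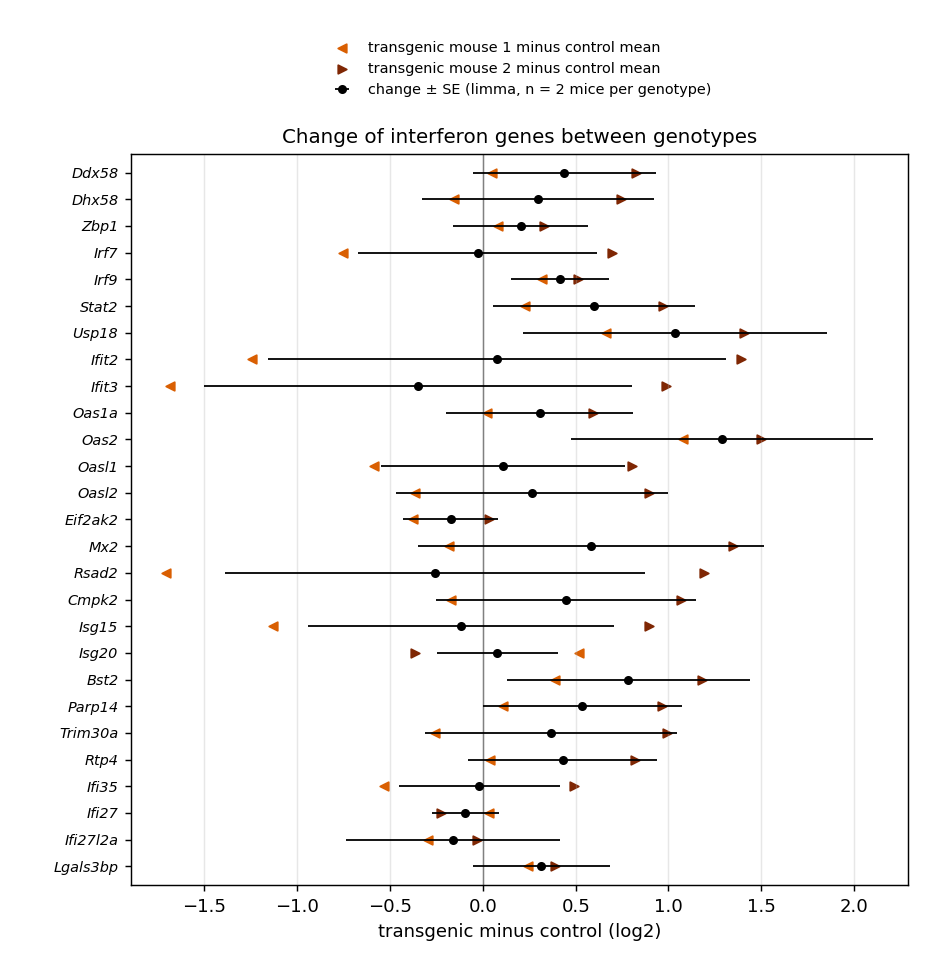
Change of each tested interferon gene between genotypes (horizontal axis, transgenic minus control, log2). Black points with bars are the limma change ± SE (n = 2 mice per genotype), and triangles are each transgenic mouse minus the control mean. The bars span zero for most genes, and the triangles of transgenic mouse 2 lie to the right of those of transgenic mouse 1 except for Isg20 and Ifi27.

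Among the sensors, the RIG-I gene Ddx58 had levels of 7.0 and 7.77 in transgenic mice 1 and 2, against 7.56 and 6.33 in control mice 1 and 2. Its change was 0.44 ± 0.49 (SE, limma adjusted p 0.814). Dhx58, which encodes LGP2, a helicase that modulates RIG-I and MDA5, was at 9.05 and 9.95 in transgenic mice and at 10.02 and 8.38 in control mice. In both genes the highest and lowest transgenic values fell inside or close to the control range. Zbp1, a sensor of nucleic acids in the left-handed Z form, lay near background. Its levels were 6.70 and 6.95 in transgenic mice and 7.11 and 6.13 in control mice, and it was detected on 0 arrays of transgenic mouse 1, both arrays of transgenic mouse 2, both of control mouse 1 and 0 of control mouse 2. Ifih1, which encodes MDA5, the sensor of long double-stranded RNA, was detected on 1 of the 8 arrays and not tested, with mean raw signals of 95 and 174.6 in transgenic mice and 138.3 and 110.5 in control mice.

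The factors that carry and amplify the interferon signal showed the same overlap. Irf7, the transcription factor that sustains interferon production, was at 9.20 and 10.65 in transgenic mice, against 10.58 and 9.32 in control mice, with means of 9.92 ± 1.03 in transgenic and 9.95 ± 0.89 in control mice (SD, n = 2 mice each). The lower mouse of each genotype had nearly the same Irf7 level, and so did the higher mouse. Stat2, which pairs with IRF9 in the factor that binds the response element, was at 8.77 and 9.51 in transgenic mice and at 9.25 and 7.83 in control mice. Irf9 was at 9.77 and 9.97 in transgenic mice and at 9.76 and 9.14 in control mice, so that transgenic mouse 1 and control mouse 1 lay at nearly the same level. The change of Irf9 was 0.42 ± 0.26 (SE, limma adjusted p 0.701). Usp18, the protease that removes ISG15 and restrains receptor signalling, was at 10.53 and 11.28 in transgenic mice and at 11.05 and 8.69 in control mice, and control mouse 2 stood apart from the other three animals.

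The effectors that bind or degrade RNA were led by the IFIT and OAS families. Ifit2, whose product binds RNA and restrains translation, had raw array signals of 231.1 and 257.3 for transgenic mouse 1 and 1579.9 and 1642.4 for transgenic mouse 2, against 1536 and 1311.2 in control mouse 1 and 267.6 and 274.9 in control mouse 2. Its levels were 7.75 and 10.38 in transgenic mice and 10.35 and 7.63 in control mice, and the genotype change was 0.07 ± 1.23 (SE, limma adjusted p 0.989). Each genotype therefore held 1 mouse with a high and 1 mouse with a low Ifit2 level. Ifit3, whose promoter is shown above, repeated this, with 7.84 and 10.52 in transgenic mice and 10.69 and 8.37 in control mice and a change of -0.35 ± 1.15 (SE, limma adjusted p 0.942). Ifit1 was detected on 0 arrays.

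The OAS enzymes make oligoadenylates that activate RNase L. Oas2 was at 11.51 and 11.93 in transgenic mice and at 11.65 and 9.22 in control mice, which gave the largest change among the members, 1.29 ± 0.81 (SE, limma adjusted p 0.698). The value rests on control mouse 2, since the other three mice lay close together, and without that mouse the change was 0.07. Oas1a was at 7.61 and 8.18 in transgenic mice and at 8.27 and 6.91 in control mice. Oasl1, known in mice to hold back translation of Irf7, was at 9.31 and 10.70 in transgenic mice and at 10.60 and 9.19 in control mice. Oasl2 was at 10.76 and 12.02 in transgenic mice and at 12.03 and 10.22 in control mice. For Oasl1 and Oasl2 the pairs of mice nearly matched across genotypes, one high and one low in each. Eif2ak2, which encodes PKR, the kinase that stops translation on binding double-stranded RNA, varied less, with 12.08 and 12.49 in transgenic mice and 12.69 and 12.23 in control mice.

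Effectors that act on viral proteins, nucleotides or membranes followed. Rsad2, which encodes viperin, an enzyme that makes a chain-terminating nucleotide, had levels of 8.64 and 11.54 in transgenic mice and 11.30 and 9.39 in control mice. Its raw signals were 370 and 404.2 on the arrays of transgenic mouse 1 and 3053 and 3844 on those of transgenic mouse 2, against 2864.3 and 2548.4 in control mouse 1 and 742.7 and 757.3 in control mouse 2. The genotype change of Rsad2 was -0.26 ± 1.13 (SE, limma adjusted p 0.96), small beside the distance between mice of one genotype. Cmpk2, a mitochondrial nucleotide kinase gene, was at 9.20 and 10.44 in transgenic mice and at 10.23 and 8.52 in control mice. Mx2, a dynamin-like GTPase gene, was at 7.82 and 9.35 in transgenic mice and at 9.20 and 6.80 in control mice. Bst2, which encodes tetherin, a membrane protein that holds budding virus at the cell surface, was at 8.98 and 9.77 in transgenic mice and at 9.49 and 7.69 in control mice. In Mx2 and Bst2 the lowest value belonged to control mouse 2.

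Isg15, the ubiquitin-like modifier that is among the most strongly induced interferon targets, had raw signals of 423.7 and 489.2 on the arrays of transgenic mouse 1, 2473 and 2235.4 in transgenic mouse 2, 1839 and 2026 in control mouse 1 and 979.1 and 530.7 in control mouse 2. Levels were 8.93 and 10.95 in transgenic mice and 10.80 and 9.31 in control mice, with means of 9.94 ± 1.43 in transgenic and 10.06 ± 1.05 in control mice (SD, n = 2 mice each), and the change was -0.12 ± 0.83 (SE, limma adjusted p 0.977). The arrays of control mouse 2 were furthest apart, and still both lay below both arrays of control mouse 1. Parp14, an ADP-ribosyltransferase gene, was at 11.59 and 12.45 in transgenic mice and at 12.15 and 10.82 in control mice. Trim30a was at 8.43 and 9.68 in transgenic mice and at 9.50 and 7.88 in control mice. Both had their highest level in transgenic mouse 2 and their lowest in control mouse 2. Rtp4, a gene of the receptor transporter family, was at 7.64 and 8.42 in transgenic mice and at 8.24 and 6.96 in control mice. Ifi35 was at 7.95 and 8.97 in transgenic mice and at 8.84 and 8.12 in control mice.

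Some of the brightest members varied little between transgenic mice. Ifi27 was at 13.16 and 12.90 in transgenic mice and at 13.14 and 13.11 in control mice. Lgals3bp, which encodes a secreted glycoprotein that binds galectins, was at 13.03 and 13.17 in transgenic mice and at 13.29 and 12.28 in control mice. Ifi27l2a was at 12.60 and 12.86 in transgenic mice and at 13.74 and 12.04 in control mice, so its control mice enclosed its transgenic mice. Isg20, a 3′ exonuclease gene, was higher in transgenic mouse 1 than in transgenic mouse 2, which among the tested members only Ifi27 shared. Its levels were 9.27 and 8.39 in transgenic mice and 8.77 and 8.73 in control mice.

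**Figure D2:**
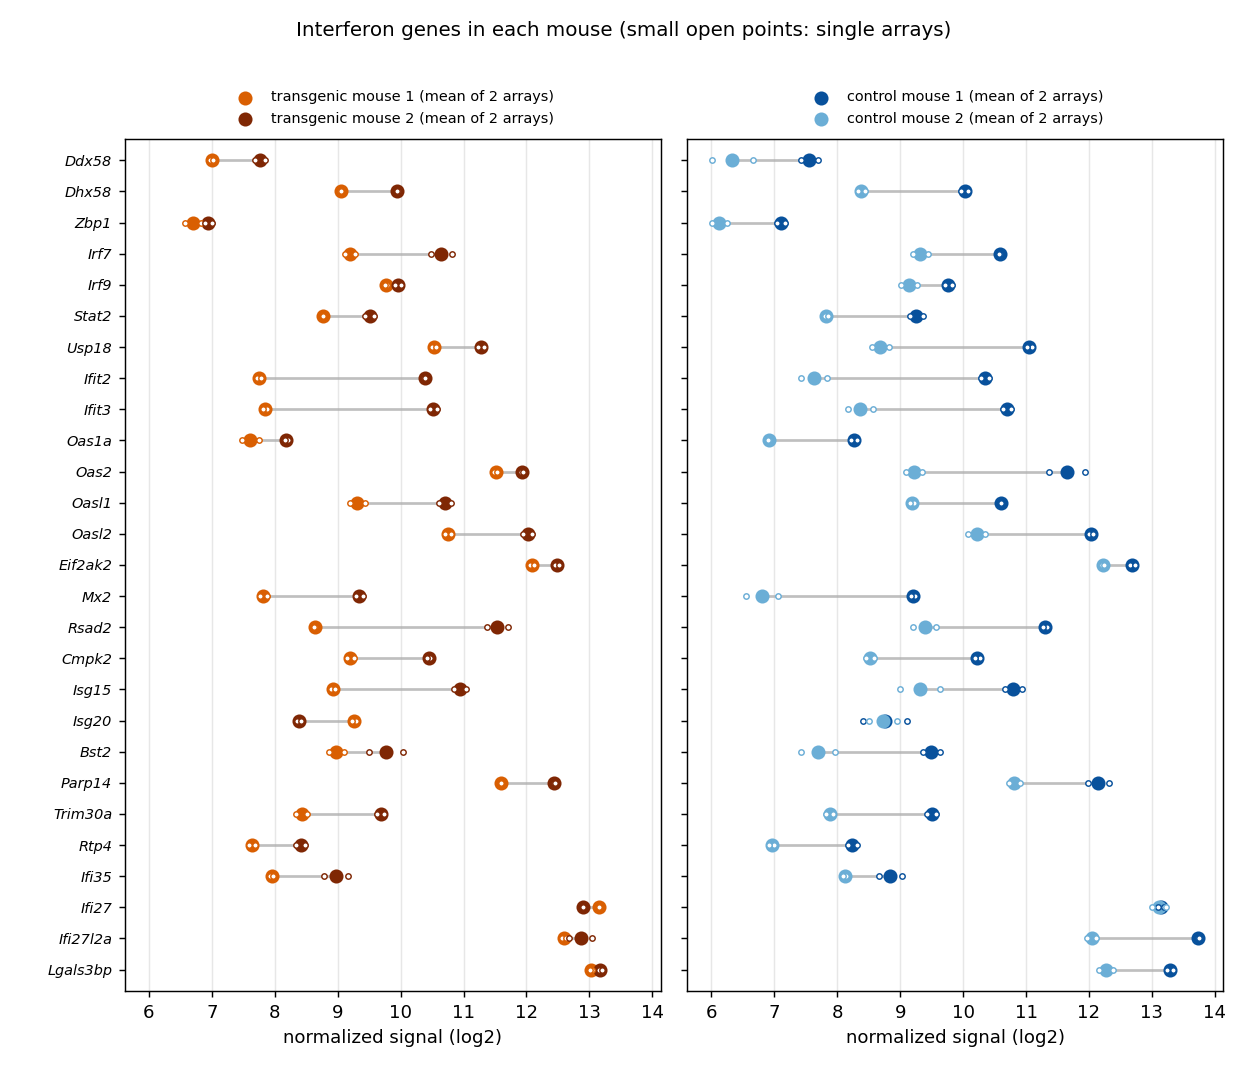
Level of the 27 tested interferon genes in each mouse (horizontal axis, normalized signal, log2), with transgenic mice in the left panel and control mice in the right. Filled points are means of 2 arrays, small open points are single arrays, and grey lines join the 2 mice of a genotype. Transgenic mouse 2 lies to the right of transgenic mouse 1 for all genes except Isg20 and Ifi27, and control mouse 1 lies to the right of control mouse 2, by very little for the same pair of genes.

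The difference between mice of one genotype was the main feature of these genes. Control mouse 1 was above control mouse 2 for all 27 members, with a median difference of 1.43 on the log2 scale, against -0.0027 over all named genes tested. The difference exceeded 2-fold for 21 of 27 members (77.8%), where control mouse 1 was higher by over 2-fold for 1.1% of all rows and lower by over 2-fold for 0.859%, with 0 members among those. The count was 13 when the background was estimated from all rows in place of those with whole-step detection values. Of the 77 rows that were over 2-fold higher in control mouse 1, 27.3% were members. Each genotype has only 2 mice, so differences between them are single observations and carry no test.

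The transgenic mice differed as well, with mouse 1 the lower. Transgenic mouse 1 was below transgenic mouse 2 for 25 of 27 members, with a median difference of -0.79, against 0.05 over all named genes tested. Transgenic mouse 1 was lower by over 2-fold for 11 members (40.7%), where 5.73% of all rows were so, and higher by over 2-fold for 0 members, where 3.14% of all rows were so. Mouse numbers carry no order, and only the size of the difference has meaning.

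A few antiviral effectors and Usp18 separated the mice most. In transgenic mice, Rsad2 was 7.45-fold, Ifit3 6.38-fold, Ifit2 6.22-fold and Isg15 4.07-fold lower in mouse 1 than in mouse 2. In control mice, Ifit2 was 6.57-fold, Oas2 5.39-fold, Mx2 5.28-fold, Usp18 5.16-fold and Ifit3 5.0-fold higher in mouse 1 than in mouse 2. The order of genes was thus not the same in both genotypes. Oas2 and Usp18, 5.39-fold and 5.16-fold apart between control mice, were 1.34-fold and 1.68-fold apart between transgenic mice, while Rsad2 was 3.76-fold apart between control mice. Zbp1, whose detection may be understated and which was not detected in the dimmer mouse of each genotype, was at least 1.18-fold lower in transgenic mouse 1 than in transgenic mouse 2 and at least 1.53-fold higher in control mouse 1 than in control mouse 2, taking for each dim array the lowest level of a detected row or the level of Zbp1 itself, whichever was higher.

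Most of these differences exceeded the error of the array. The 2 arrays of a mouse differed by a median of 0.115 on the log2 scale over the members, and by 0.699 at most. The arrays of the 2 transgenic mice did not overlap for 27 of 27 members, where 78.7% of all rows did not overlap, and the arrays of the 2 control mice did not overlap for 25 of 27, where 46.3% of all rows did not. The exceptions were Isg20 and Ifi27. Over all rows the median absolute difference was 0.304 between transgenic mice and 0.145 between control mice, against 0.853 between transgenic and 1.43 between control mice for the members. Among the 50 rows with the largest difference between control mice 12 were members, and among the 50 with the largest difference between transgenic mice 3 were.

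**Figure D3:**
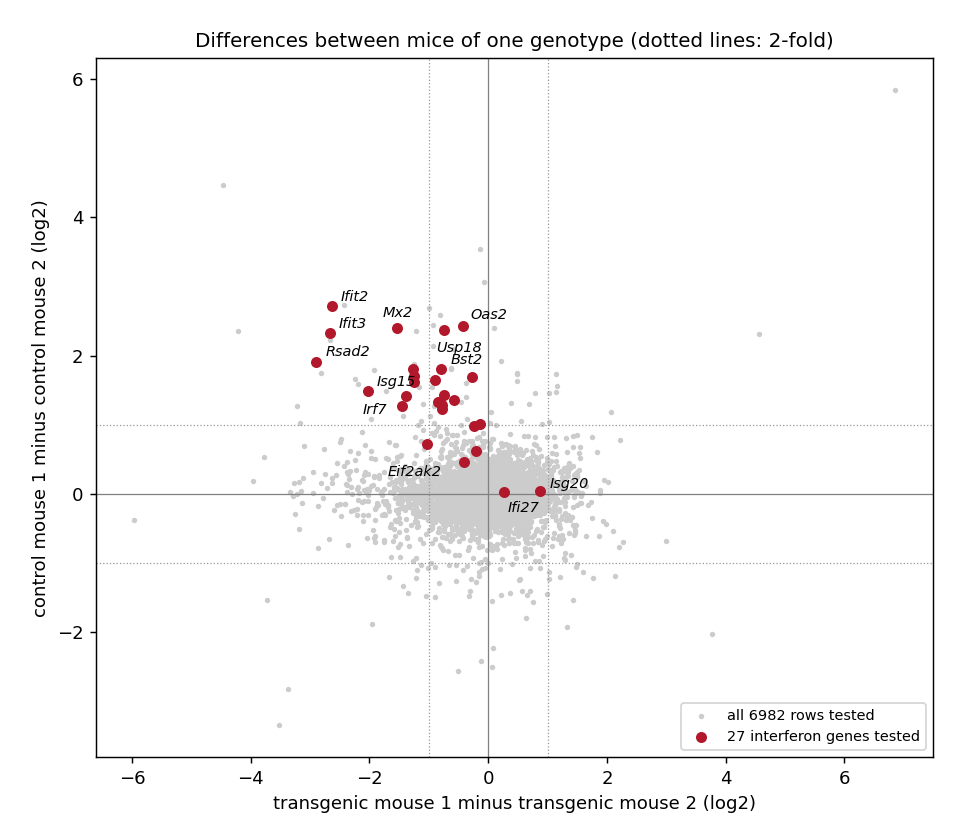
Difference between the mice of each genotype for every row tested (horizontal axis, transgenic mouse 1 minus 2; vertical axis, control mouse 1 minus 2, both log2). Grey points are all 6982 rows, red points the 27 interferon genes, and dotted lines mark 2-fold. The red points lie mostly in the upper left part, where 10 members lie past 2-fold on both axes.

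Both differences joined in 10 members (37.0%), which were over 2-fold lower in transgenic mouse 1 than 2 and over 2-fold higher in control mouse 1 than 2, where 28 of all rows (0.401%) met both. The 10 were Irf7, Ifit2, Ifit3, Oasl1, Oasl2, Mx2, Rsad2, Cmpk2, Isg15 and Trim30a, and they made up 35.7% of the 28 rows. Across the 27 members the differences within the 2 genotypes had a Pearson correlation of -0.67 and a Spearman correlation of -0.61, and across all 6982 rows -0.04 and 0.01. These are correlations across genes that share the same 4 mice and the same normalization, given as a description. Their sign depends on how the mice of a genotype are numbered, and the numbers carry no order. The directions in the joint count were those that most members took, so that count is a description too. By promoter, the median difference was -0.79 between transgenic mice and 1.48 between control mice for 9 tested members with the core, and -1.24 between transgenic and 1.26 between control mice for 9 with a window that lacks it.

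Taken mouse by mouse, the levels put control mouse 2 lowest for 19 of the 27 members and transgenic mouse 1 lowest for 6. Transgenic mouse 2 was highest for 17 and control mouse 1 for 8. The median level over the members was 9.05 and 10.44 in transgenic mice 1 and 2 and 10.35 and 8.69 in control mice 1 and 2. The difference between genotypes depended on which animals were set side by side. Transgenic mouse 1 minus control mouse 1 gave a median of -0.66 over the members, and 11 of 27 were over 2-fold apart, where 9.25% of all rows were. Transgenic mouse 2 minus control mouse 2 gave 1.57, with 19 members over 2-fold apart, where 5.31% of all rows were. Transgenic mouse 2 and control mouse 1 were over 2-fold apart for 0 members, with a median of 0.13, where 3.08% of all rows were. Transgenic mouse 1 and control mouse 2 were so for 4 members, with a median of 0.57, near the 11.9% of all rows.

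Members that were not tested lay near or below background, except Oas1g. Ifit1, Mx1, Xaf1 and Sp100 were detected on 0 arrays, which says that their signal did not stand out from the negative controls and not that the genes were silent. Cxcl10, a chemokine gene that draws T cells, was detected on both arrays of control mouse 1 alone, at a mean raw signal of 183.6, against 98.7 in control mouse 2 and 102.7 and 155.4 in transgenic mice 1 and 2, and it was at least 1.25-fold higher in control mouse 1 than in control mouse 2. Oas1g and Oas3, and among the tested members Ifit2, Ifit3, Usp18, Oasl1 and Zbp1, have detection values that are not whole steps of the negative controls and may each average several probes, so that their detection may be understated. Oas1g was bright, at raw signals of 1598 and 4126 in transgenic mice and 3942 and 2177 in control mice, yet passed detection on 1 of the 8 arrays and was not tested. Transgenic mouse 1 and control mouse 2 were the lower mice of their genotypes, as for Ifit3. Oas3 had raw signals of 81.9 and 172.2 in transgenic mice and 140.8 and 98.3 in control mice.

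The interferon genes themselves lay at or near background. Of 13 type I interferon genes on the array, 1, Ifnz, was detected on at least 1 array and 0 were tested, with no raw signal above 171.7. Of a wider list of interferons, receptors and signalling genes, 10 were tested of 29 on the array, 18 were detected on 0 arrays, and 0 were called in either direction. The median change of the 10 was 0.06 and their median difference was -0.54 between transgenic mice and 0.11 between control mice. The smallest p values in that list belonged to Il10rb, a receptor chain shared by interleukin 10 and the lambda interferons, with a change of -0.39, and Irf8, a transcription factor of immune cells, with 0.29. Il10rb passed without transgenic mouse 2, at a change of -0.75 (limma adjusted p 0.048), and not without any other mouse (0.957 to 1.0). Among 14 tested sensors and adaptors, of 17 on the array, 0 were called and the median change was 0.03. Rnaseh2c, a subunit of the nuclease that removes RNA from DNA, had a change of -0.35 and Ticam1, the adaptor of the double-stranded RNA receptor Tlr3, of -0.20, and neither passed the test.

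Other interferon-stimulated genes differed between control mice in the same direction with a smaller median. Of 22 tested, from 41 on the array, 0 were called between genotypes and the median change was 0.12. They were higher in control mouse 1 than 2 for 20 of 22, by a median of 0.75, with 6 over 2-fold, where 1.1% of all rows were so. They were lower in transgenic mouse 1 than 2 for 17 of 22, with a median of -0.40 and 2 over 2-fold, where 5.73% of all rows were so. For Ifitm3, a membrane protein that blocks viral entry, levels were 13.77 and 13.28 in transgenic mice and 13.25 and 11.52 in control mice, a change of 1.14 that missed the threshold and was 0.27 without control mouse 2. Psmb9, a subunit of the immunoproteasome, was at 11.06 and 10.61 in transgenic mice and at 10.06 and 10.26 in control mice, a change of 0.67 with a limma adjusted p of 0.524, which was 0.0429 without transgenic mouse 2 and 0.374 to 1.0 without any other mouse.

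A list of class II antigen presentation genes, which also respond to interferon gamma, had 10 genes on the array. Of these, H2-DMb2, H2-Oa, H2-Ob and Ciita were detected on 0 arrays. The list held 6 tested genes and does not include H2-Ea, described further on. The transgenic mice were wholly above the control mice for 6 of these 6, where 21.7% of all rows were so, with a median change of 1.87, and 0 were called. The 6 were higher in transgenic mouse 1 than 2, by a median of 1.28, where the interferon list was lower, and the median difference between control mice was -0.23. Cd74, the invariant chain, was at 12.15 and 11.56 in transgenic mice and at 9.83 and 9.88 in control mice, a change of 2.00 with a limma adjusted p of 0.118, and H2-Eb1, a class II beta chain, had a change of 2.12. With the mouse as a random effect the limma adjusted p was 0.000829 for Cd74 and 0.0087 for H2-Eb1, against 0.118 and 0.342 on mouse means. The limit given for Dnmt1 holds here too, since that fit partly counts the 2 arrays of a mouse as separate observations. When a mouse was left out, the change ranged from 1.71 to 2.29 for Cd74 and from 1.42 to 2.82 for H2-Eb1. Markers of tuft cells, chemosensory cells of the epithelium, lay wholly above as well for 5 of 5 tested, with a median change of 1.99 and 0 called. Their median difference was 0.69 between transgenic mice and -0.07 between control mice. Of 8 tuft markers on the array, Pou2f3 and Rgs13 were detected on 0 arrays, and Gnat3, detected on 3, was not tested. The part of tuft cells in the class II values was not tested.

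**Figure D4:**
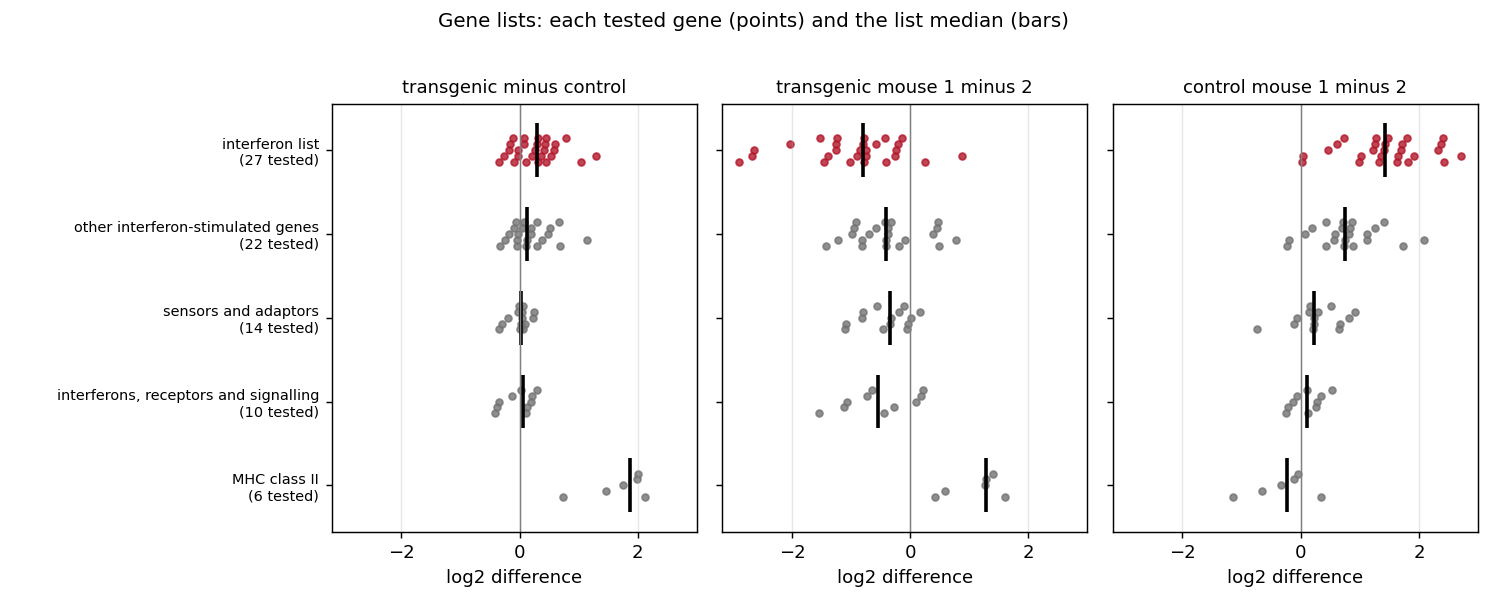
Log2 differences of the interferon list (red) and the context lists (grey), 1 point per tested gene, with black bars at the list median. The panels show transgenic minus control, transgenic mouse 1 minus 2 and control mouse 1 minus 2. The interferon list has medians of 0.30, -0.79 and 1.43, and the MHC class II list 1.87, 1.28 and -0.23.

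Markers of cell types were set beside these values. Of 6 colonic epithelial markers on the array, 5 were tested and detected on all 8 arrays, and Slc26a3, an ion exchanger gene of colonocytes, was detected on 0. Krt20, a keratin of mature colonocytes, was at 11.08 and 13.51 in transgenic mice and at 13.61 and 13.21 in control mice, so it was low in transgenic mouse 1 and similar in both control mice. The other markers differed less between transgenic mice. Transgenic mouse 1 minus 2 was -2.43 for Krt20, -0.50 for Vil1, -0.44 for Cdx2, -0.11 for Lgals4 and -0.69 for Krt8. Control mouse 1 minus 2 was -0.03 for Vil1, 0.66 for Cdx2, 0.06 for Lgals4 and 0.06 for Krt8. The plasmacytoid dendritic cell, a main interferon producer of blood and lymphoid tissue, had 8 markers on the array, among which the defining receptors Siglech and Ccr9 were detected on 0 arrays. Summed over the 5 tested markers of that cell, the linear signal was 39439 and 37641 in transgenic mice and 42871 and 48774 in control mice, nearly all of it from Klk1, a secreted protease also made by glands, and Bst2 is a member of both lists. Of 10 myeloid markers, 7 were detected on 0 arrays, and of 5 B and plasma cell markers, 5 were. The 3 myeloid markers tested summed to 2166 and 2796 in transgenic mice and 2556 and 2457 in control mice, most of it from Cd14. Of these, Mrc1, a macrophage receptor gene detected on 4 of the 8 arrays, was at 7.10 and 7.37 in transgenic mice and at 5.56 and 5.77 in control mice, with a limma adjusted p of 0.118. Its control levels lay below the lowest level of a detected row with whole-step detection values on the control arrays, 6.30 to 6.57. Mrc1 may thus have passed the filter through the transgenic mice alone, and no conclusion is drawn from its p. Ctss, a lysosomal protease gene, had a change of -0.60 that did not pass. Of 10 T and NK cell markers on the array, 3 were detected on 0 arrays. Among the 6 tested, the transgenic mice lay wholly below the control mice for 5, where 20.9% of all rows did. They lay wholly above for Prf1, where 21.7% did, and 0 were called. Cd3d, Cd3e, Cd3g and Nkg7, all among the 5, were each detected on 6 of the 8 arrays. Their levels in transgenic mouse 1, 5.83 to 5.95, lay below the lowest level of a detected whole-step row on its arrays, 6.31 to 6.33. The summed signal of the 6 markers was 6820 and 5343 in transgenic mice and 4406 and 4499 in control mice. It was carried by Prf1, a pore-forming protein of killer cells, and so ran against the other 5. The part of any of these in the interferon values was not tested.

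Genes of the major histocompatibility complex that differ between inbred strains also varied among the mice. H2-Ea, a class II alpha chain gene that is not transcribed in some inbred strains, was at 4.80 and 9.02 in transgenic mice and at 7.35 and 5.0 in control mice, and it was detected on 0 arrays of transgenic mouse 1 and control mouse 2 and on both arrays of each of the others. H2-Q5, a class I gene, was at 5.61 and 10.08 in transgenic mice and at 10.003 and 5.53 in control mice, with the same detection. These genes were chosen after their values were seen. The mice were of mixed strain, and the part of the strain background in the interferon values was not tested.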

How the data were processed

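Total RNA from colonic mucosa of 4 mice was hybridised to 8 BeadChip arrays, 2 per mouse. BeadStudio and Partek are listed with no version or role, per the submitters' processing notes. The deposited table holds linear intensity values, not normalized between arrays, and a detection value given as a fraction per the file headers, which rises with the signal (rank correlation 0.945 to 0.954) and was read as 1 minus the detection p. The series matrix holds deposited log2 values that are quantile normalized and not centred (medians of 6.84 or 6.85, rank correlation with the raw signals 1), as comparison with the raw table shows, and served as an alternative.

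For 13920 of 18097 rows (76.92%) the detection values were whole multiples of 1/798 within 0.005 of a step. The background mean and SD came from these rows alone, which gave an SD of 13.7 to 24.2 per array, against 389 to 682 from all rows. The other 4177 rows may average several probes, so their detection may be understated. Background was corrected by normexp in limma 3.58.1 (R 4.3.3, statmod 1.5.0) with an offset of 16, followed by quantile normalization and log2. Rows needed a detection p under 0.01 on 4 of 8 arrays. The offset understates changes of dim rows, and no depth exists for arrays: their number limits the precision.

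Levels were averaged over a mouse's 2 arrays, and lmFit and eBayes compared 2 transgenic with 2 control mice over 6982 rows, two-sided. Nothing in the labels says whether mice were littermates. The fit was also run on simulated data with noise drawn separately for each row. That setting does not cover genes that move together by mouse, as the members do, and no conclusion is drawn from it. Gene names came from the platform annotation: 16610 rows had 1 symbol, 0 several and 1487 none. Any member may be named, Dnmt1 as a check, and from each context list at most 4 genes with the smallest p; cell markers and strain-variable genes are named beside the result they bear on. Members and lists were chosen with earlier results of these data known. Alternatives were other background, offset, scaling, filter, array and variance settings and leaving out each mouse.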

Additional observations from a re-analysis of the deposited data

How the results depend on the processing

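No member was called under any of 16 alternatives. Of 429 member changes under these alternatives, 386 kept their direction and 43 reversed, 38 of them when a mouse was left out. Settings that altered only the detection filter or the variance model used the same levels. A change could not reverse under those settings, so the 386 overstate how stable the directions were. Leaving out a mouse leaves its genotype with 1 mouse, assumed to vary like the other genotype. No paired analysis was possible because the replicate numbers in the labels number the 2 arrays of a mouse and pair no mice across genotypes.

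Rows called higher, 9 in the chosen setting, numbered 107 with the mouse as a random effect, 0 with background from all rows, 1 with detection on all 8 arrays, 2 with no filter and 14 with multi-probe rows kept by signal, which was added after seeing the data; rows called lower, 0 in the chosen setting, numbered 78 with the random effect. Without a mouse, rows called higher ranged from 0 to 367 and lower from 0 to 483. Members with both transgenic mice above both control mice were 0 with median scaling, and those with the reverse order were 1. Without a mouse, members with every remaining transgenic mouse above every remaining control mouse ranged from 1 to 19, and below from 0 to 8. That order is easier to reach with fewer mice, and its share over all rows is not given. These counts are therefore not comparable with those from all mice. The members' median change ranged from -0.38 to 0.99 without a mouse.

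The median difference between control mice, 1.43, was 0.98 with background from all rows, 1.30 in the series matrix, 1.33 with no filter, 1.36 with an offset of 50, 1.39 at detection p under 0.05, 1.46 with detection on all arrays and 1.54 with median scaling. Over 2-fold between control mice were 13 members with background from all rows. The median between transgenic mice, -0.79, was -0.54 with background from all rows, -0.72 in the series matrix, -0.88 with array 1 alone and -0.97 with median scaling.

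Reversed changes were Ifi35 (0.011) and Irf7 (0.0032) with background from all rows, Ifi35 (0.15) and Oasl1 (-0.013) on array 1, and Irf7 (0.044) on array 2. Without a mouse, the changes that reversed ranged as follows: Bst2 -0.12 to 1.68, Cmpk2 -0.40 to 1.30, Ddx58 -0.17 to 1.05, Dhx58 -0.52 to 1.12, Eif2ak2 -0.41 to 0.060, Ifi27 -0.23 to 0.034, Ifi27l2a -1.01 to 0.69, Ifi35 -0.53 to 0.49, Ifit2 -1.28 to 1.43, Ifit3 -1.69 to 0.99, Irf7 -0.75 to 0.70, Isg15 -1.13 to 0.89, Isg20 -0.36 to 0.52, Lgals3bp -0.19 to 0.82, Mx2 -0.62 to 1.78, Oas1a -0.37 to 0.99, Oasl1 -0.60 to 0.81, Oasl2 -0.64 to 1.17, Parp14 -0.13 to 1.20, Rsad2 -1.71 to 1.19, Rtp4 -0.21 to 1.07, Stat2 -0.11 to 1.31, Trim30a -0.44 to 1.18, Usp18 -0.15 to 2.22, Zbp1 -0.29 to 0.69. The cause was not tested. Signal near background limits Zbp1, Cxcl10 and Ifih1.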

Other observations

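In all, 28 rows were over 2-fold lower in transgenic mouse 1 than 2 and over 2-fold higher in control mouse 1 than 2. Of the 24 with a gene name, 10 were members and 1, Ube2l6, is on the list of other interferon-stimulated genes. The genes below were chosen after their values were seen. The named rows outside the member list were Ifi47, Ube2l6, Phf11d, Apol9b, H2-K1, H2-Ea, H2-Q5, Cdkn2b, Epop, Eif4e3, Ly6g6c, Mal, Rusc2 and 4933427D14Rik. Ifi47, an interferon-induced GTPase, was at 9.44 and 10.59 in transgenic mice and at 10.21 and 8.66 in control mice. Ube2l6, the enzyme that conjugates ISG15, was at 6.28 and 7.71 in transgenic mice and at 7.48 and 6.36 in control mice. Phf11d was at 8.74 and 10.46 in transgenic mice and at 10.15 and 8.66 in control mice, and Apol9b at 8.45 and 9.69 in transgenic mice and at 9.54 and 7.66 in control mice. The class I gene H2-K1 was at 7.84 and 9.76 in transgenic mice and at 9.53 and 7.74 in control mice. Cdkn2b, an inhibitor of the cell cycle, was at 7.93 and 10.12 in transgenic mice and at 10.83 and 9.24 in control mice, and its control mouse 2 lay above its transgenic mouse 1.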
